A study of Mus musculus with 6 samples.

Results

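The genes described here are the protein-coding genes of a 4 Mb stretch of mouse chromosome 2 in GRCm38, read in their order along it. The first member, Ift52, starts at chr2:163017354 and the last, Stau1, ends at chr2:166996299. Taking the deposited rows whose GENCODE M21 gene lies fully inside these bounds gave 91 genes of 35275 rows. The stretch was picked because Ccn5, Slpi, Mmp9 and Sulf2, which lie in it, were far higher in one group of cells. Their difference between the groups is therefore what chose the interval. Differences of members in the same contrast are therefore given as descriptions, and members past the threshold are counted only beside the share of all genes past it.

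RNA was sequenced from 3T3 cells, an immortalised mouse embryonic fibroblast line. The control group carried a control construct and the other group overexpressed NNMT, the enzyme nicotinamide N-methyltransferase, which uses S-adenosylmethionine to methylate nicotinamide. Both groups, 3 libraries each, had grown for 48 h in methionine-free DMEM brought to 10 µM methionine with 10% dialyzed FBS. Of the NNMT libraries 1 carries no replicate number in the table and is called the unnumbered NNMT library. Neither the promoter of the construct nor whether each group was a single clone, a pool or separate transductions is given in the sources used here. A difference between 2 starting populations and an effect of NNMT cannot be told apart in this design. Levels are in FPKM (reads scaled to transcript length and to the counted reads of the library), n = 3 per group, and errors are SD unless named SE. Single-library values follow one order throughout: control replicates 1, 2 and 3, then the unnumbered NNMT library, NNMT replicate 2 and NNMT replicate 3.

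The interval holds genes of unlike function. Slpi belongs to a long cluster of whey acidic protein (WFDC) and Kunitz domain genes, whose products inhibit proteases. Most of that cluster and the neighbouring seminal vesicle genes are known from the male reproductive tract and epithelia, while SLPI itself is also made by macrophages and neutrophils and blocks elastase and cathepsin G. Ccn5 encodes a matricellular protein of the CCN family that lacks the C-terminal cystine knot domain of its relatives. MMP9 is a gelatinase that cleaves denatured collagen and type IV collagen. SULF2 is an extracellular enzyme that removes 6-O-sulfate groups from heparan sulfate and so alters growth factor binding.

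The 6 libraries had between 31667152 and 40036226 counted reads, so a single read over 1 kb equals 0.0250 to 0.0316 FPKM. Nnmt was 6.45 ± 1.18 FPKM in control cells and 16.3 ± 1.70 FPKM in NNMT cells. All 8 fibroblast markers reached a mean of 1 FPKM, and their sum was 7246 to 7438 FPKM in control and 9167 to 10330 FPKM in NNMT libraries. The list went both ways: the means of Col1a1, Col1a2 and Col3a1 were higher in NNMT cells (1815 and 3624 FPKM for Col1a1), and those of Vim, S100a4 and Thy1 were lower (1515 and 1044 FPKM for Vim). Of 6 macrophage and leukocyte markers, 2 (Cd68 and Cd14) did, and their list summed to 6.55 to 7.46 FPKM in control libraries and 3.26 to 4.36 in NNMT libraries. Ptprc and Adgre1, which define leukocytes and macrophages, reached at most 0.0305 and 0.00872 FPKM in any library. None of 6 epithelial or 4 endothelial markers reached a mean of 1 FPKM, and Epcam, Krt18 and Cldn4 were at 0 in all 6 libraries. Of 5 skeletal muscle markers 2 did, while Myod1 and Myog were at 0. The part of these marker differences in the results below was not tested. In bulk RNA, fewer cells that express a gene and less of its RNA per cell cannot be told apart.

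Ccn5, Slpi, Mmp9 and Sulf2 were low in control cells and moderately expressed in NNMT cells, with no overlap between the groups for any of them. Ccn5 (ENSMUSG00000027656, chr2:163820861-163833146, plus strand) was at 0.666, 0.717 and 0.827 FPKM in the control libraries and at 19.4, 17.9 and 17.8 FPKM in the NNMT libraries. The NNMT libraries lay close together. The control values rest on 39, 48 and 45 reads and the NNMT values on 1338, 1085 and 1114. The group means were 0.737 ± 0.0819 and 18.4 ± 0.919 FPKM, a 24.9-fold difference.

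Slpi (ENSMUSG00000017002, chr2:164354070-164389095, minus strand) had the highest level of the 4 in both groups. Control libraries held 6.44, 4.54 and 5.98 FPKM, and NNMT libraries 61.2, 54.3 and 70.4 FPKM. The libraries of a group varied more for this gene than for Ccn5. The means of Slpi, 5.66 ± 0.989 and 61.9 ± 8.06 FPKM, differed 10.95-fold. Its long annotated span comes from 1 of 3 transcripts that starts far upstream.

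Mmp9 (ENSMUSG00000017737, chr2:164940780-164955850, plus strand) was at 2.60, 2.22 and 2.12 FPKM in control and at 25.5, 20.4 and 24.4 FPKM in NNMT libraries, a 10.1-fold difference of the means. For Sulf2 (ENSMUSG00000006800, chr2:166073089-166155663, minus strand) the control values were 2.14, 2.37 and 2.28 FPKM. The NNMT libraries held Sulf2 at 36.4, 28.9 and 33.2 FPKM, 14.5-fold above control by the means. NNMT replicate 2 was the lowest NNMT library for Slpi, Mmp9 and Sulf2, and the highest differed between genes. Read totals in the NNMT libraries were 6066 for Slpi, 8342 for Mmp9 and 16885 for Sulf2.

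On the log2(FPKM + 1) scale, which understates the change of low genes, the log2 fold changes were 3.48 (SE 0.063) for Ccn5, 3.37 (SE 0.077) for Sulf2, 3.24 (SE 0.113) for Slpi and 2.88 (SE 0.086) for Mmp9. Among the 10882 genes whose mean reached 1 FPKM they held ranks 4, 6, 7 and 14 by log2 fold change. Of those genes, 0.0919% (10 genes) had a log2 fold change of at least 3, and 3 of the 10 were Ccn5, Sulf2 and Slpi. These ranks are what drew attention to the interval. The start of the Slpi span lies 568 kb beyond that of Ccn5, Mmp9 552 kb beyond Slpi, and Sulf2 1215 kb beyond Mmp9. Between Ccn5 and Slpi lie 17 other members, between Slpi and Mmp9 35, and between Mmp9 and Sulf2 16.

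**Figure D1:**
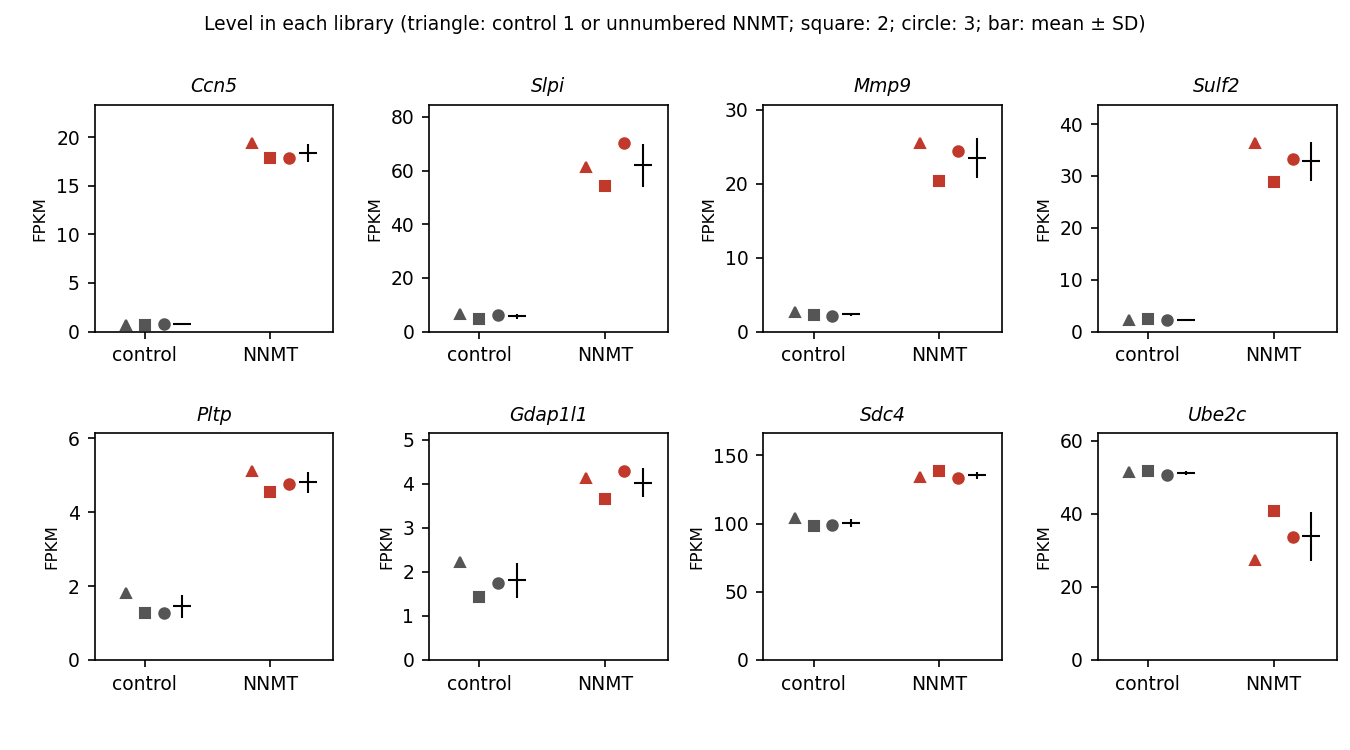
FPKM of 8 members in each library (vertical axes start at 0 and differ between panels), with control libraries in grey, NNMT libraries in red, and mean ± SD beside them. In the panels of Ccn5, Slpi, Mmp9, Sulf2, Pltp, Gdap1l1 and Sdc4 each NNMT library lies above each control library, and in that of Ube2c each lies below.

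The letters before the start sites differ widely between Slpi, its silent neighbour Svs4, Sulf2, Pltp and the cadherin gene Cdh22. They are shown because CG dinucleotides, the sites of DNA methylation in mammals, are sparse before some members and dense before others. Each line holds the 250 bases before the start given by RefSeq on GRCm38.p6, read 5′ to 3′ on the strand of the gene, with CG dinucleotides in capitals. Positions are chr2:164356508-164356757 for Slpi, chr2:164278308-164278557 for Svs4, chr2:166155286-166155535 for Sulf2, chr2:164857709-164857958 for Pltp and chr2:165234738-165234987 for Cdh22, and all 5 lie on the minus strand.
Slpi: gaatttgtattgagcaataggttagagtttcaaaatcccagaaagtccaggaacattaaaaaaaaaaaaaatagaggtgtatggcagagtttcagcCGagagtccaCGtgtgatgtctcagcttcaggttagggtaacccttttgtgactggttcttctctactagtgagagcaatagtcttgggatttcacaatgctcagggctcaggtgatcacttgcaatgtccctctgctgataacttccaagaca
Svs4: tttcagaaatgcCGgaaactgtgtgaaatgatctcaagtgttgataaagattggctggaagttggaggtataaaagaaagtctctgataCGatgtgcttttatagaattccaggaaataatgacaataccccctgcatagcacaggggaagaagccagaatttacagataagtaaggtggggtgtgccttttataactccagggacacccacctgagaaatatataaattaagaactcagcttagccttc
Sulf2: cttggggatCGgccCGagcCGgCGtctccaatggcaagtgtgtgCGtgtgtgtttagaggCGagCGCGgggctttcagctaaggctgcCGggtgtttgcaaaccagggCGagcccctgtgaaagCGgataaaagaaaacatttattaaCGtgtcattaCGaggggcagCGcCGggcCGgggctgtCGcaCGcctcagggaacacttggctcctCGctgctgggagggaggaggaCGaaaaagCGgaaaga
Pltp: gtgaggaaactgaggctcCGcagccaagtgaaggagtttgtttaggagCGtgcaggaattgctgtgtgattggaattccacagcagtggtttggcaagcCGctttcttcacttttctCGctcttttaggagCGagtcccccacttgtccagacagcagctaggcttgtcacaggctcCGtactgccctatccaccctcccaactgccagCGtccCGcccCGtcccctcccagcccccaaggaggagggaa
Cdh22: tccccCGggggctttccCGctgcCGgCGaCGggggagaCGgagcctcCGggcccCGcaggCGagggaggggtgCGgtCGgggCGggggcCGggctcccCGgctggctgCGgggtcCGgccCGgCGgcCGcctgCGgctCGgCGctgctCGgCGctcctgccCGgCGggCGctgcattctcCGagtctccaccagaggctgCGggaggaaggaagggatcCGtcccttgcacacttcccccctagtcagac

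Slpi and Svs4 held 2 CG dinucleotides each in this window, Pltp 9, Sulf2 21 and Cdh22 30. A second start of Sulf2 in the table held 10. RefSeq promoter entries were matched for 75 of 91 members, and Ccn5 and Mmp9 are among those without one. Across all 32851 entries of the table the median was 6 CG per window, with quartiles of 2 and 16. The 48 entries of 33 members with a mean of at least 1 FPKM had a median of 14.5, from 1 to 30. The 28 entries of 21 members at 0 in all libraries had a median of 4. Fewer than 10 CG were held by 22 of these 28, by 12 of the 48 and by 62.2% of all entries. Slpi thus had as few CG before its start as silent Svs4 nearby, at 61.9 FPKM in NNMT cells.

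**Figure D2:**
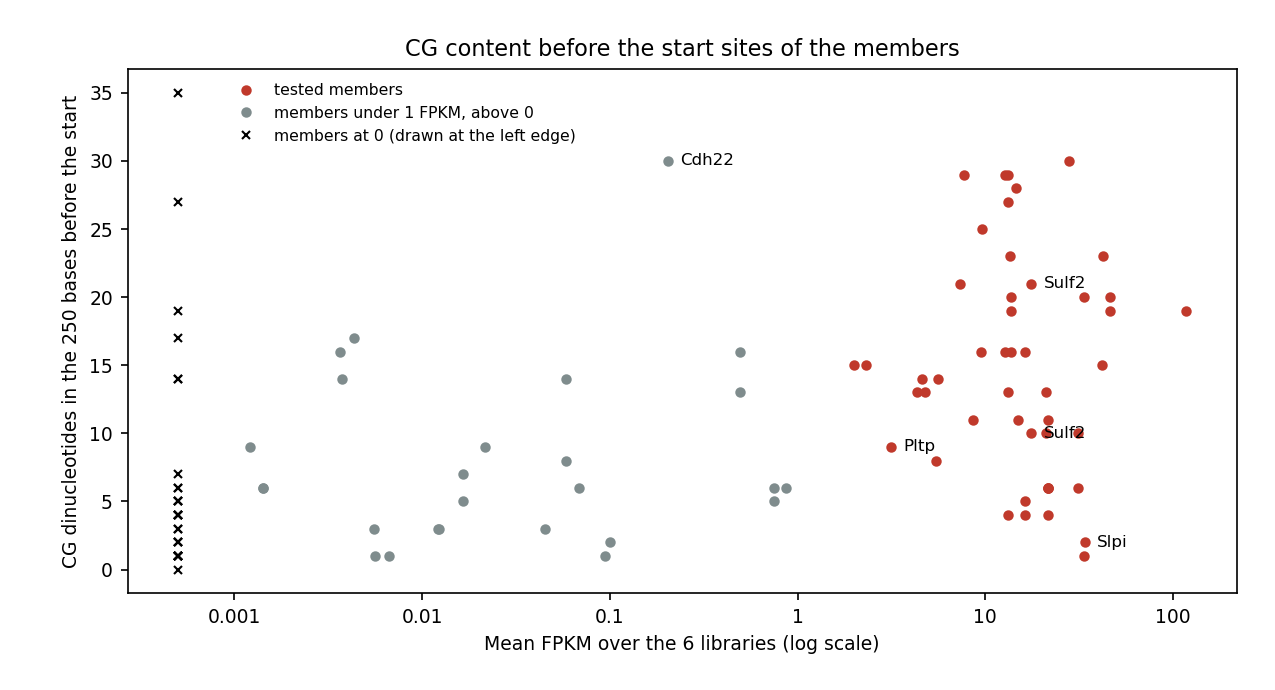
Number of CG dinucleotides in the 250 bases before each start site (vertical) against the mean FPKM over the 6 libraries (horizontal, log scale), 1 point per promoter entry, with members at 0 drawn as crosses at the left edge. Slpi sits with 2 CG at the lower right, close to 1 entry of Stau1 with 1 CG, whose other entry has 20. Cdh22 has 30 CG well below 1 FPKM, and among the crosses the entries of Tox2 run from 5 to 35 CG.

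The same windows were searched on both strands for 4 motifs: TGANTCA (AP-1), the kappaB motif, GGAATG (TEAD) and CACGTG (E-box). The E-box letters occurred once before Slpi, as they did in 6.02% of all entries, and were not in the windows of Sulf2 and Pltp. None of the other 3 motifs was found in the windows of Slpi, Sulf2 or Pltp. The window of Cdh22, a member under 1 FPKM, held the kappaB motif once and none of the others, and that of Svs4 held none of the 4. The AP-1 letters were in 6.75% of all entries and in 3 of the 48 entries of members above 1 FPKM (Tomm34, Acot8 and Zswim3). The kappaB motif was in 7.25% of all entries and in 5 of the 48, and the TEAD letters were in 12.6% and in 4. These are letter matches in a short window and say nothing about binding.

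Of the 91 members, 41 had a mean of at least 1 FPKM and entered the fit across all genes. Of these 41, 27 were higher in NNMT cells and 4 were lower at a limma adjusted p under 0.05, where 35.0% of all tested genes were higher and 30.6% lower. The median log2 fold change of the 41 was 0.24 (quartiles 0.10 and 0.50), against 0.03 for all tested genes. The groups did not overlap upward for 29 members and downward for 4, against 37.2% and 32.7% of all tested genes. Since the interval was chosen on this contrast, nothing is read from these shares. Without Ccn5, Slpi, Mmp9 and Sulf2 the median of the remaining 37 was 0.21.

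**Figure D3:**
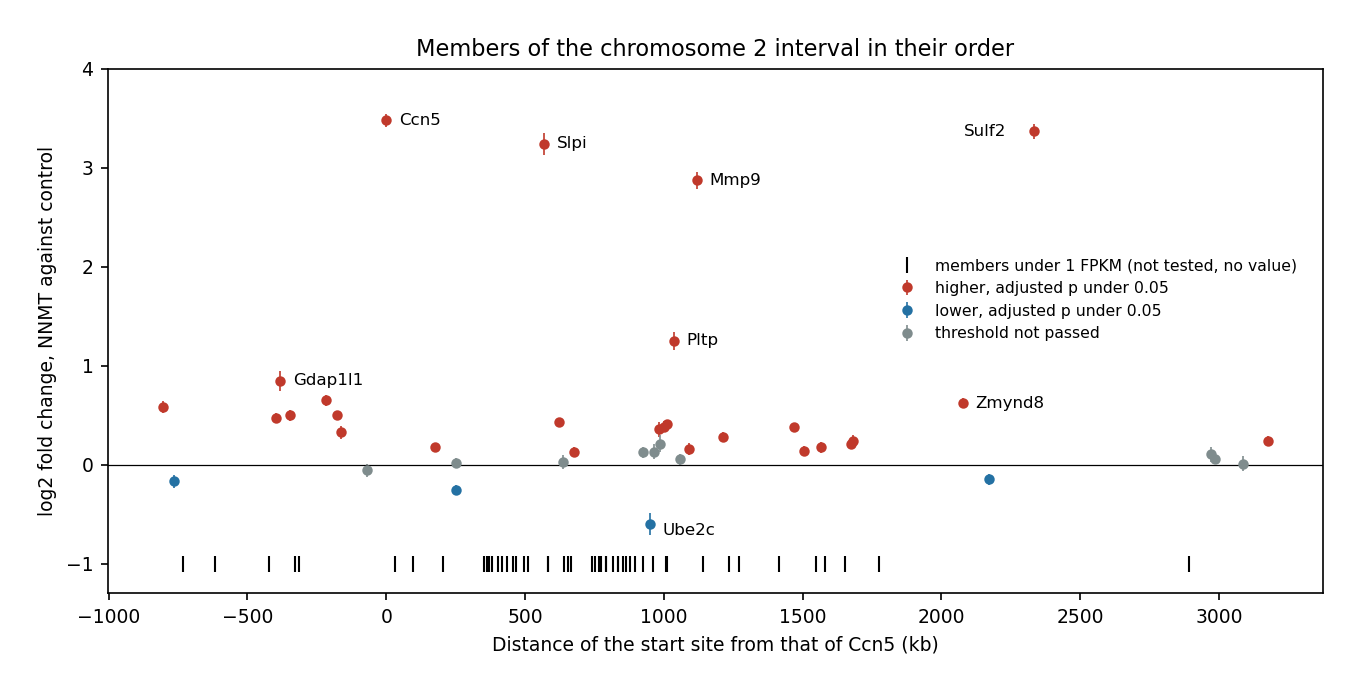
Log2 fold change of each of the 41 tested members (vertical, bars are SE) by the distance of its start site from that of Ccn5 in kb (horizontal). Ccn5, Slpi, Mmp9 and Sulf2 lie near 3 with Pltp next at 1.25, and ticks at the bottom mark the 50 members under 1 FPKM, crowded around Slpi.

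The secreted and matrix genes were higher in every tested case, 7 of 7, against 35.0% of all tested genes, and 4 of the 7 are the genes on which the interval was chosen. Pltp, which moves phospholipids between lipoproteins (chr2:164839518-164857711), stood at 1.81, 1.26 and 1.28 FPKM in control and at 5.11, 4.54 and 4.77 FPKM in NNMT libraries. Its groups did not overlap, and the means differed 3.32-fold (log2 fold change 1.25, SE 0.091). A log2 fold change of at least 1 was found in 5 members, these being Pltp and the 4 chosen genes, and in 2.36% of all tested genes. No member was lower by that much, against 1.76% of all tested genes. Pltp shares 1515 bases of its span with Ctsa, which encodes the lysosomal protective protein cathepsin A and runs on the opposite strand. Ctsa was the more abundant, at 26.7 ± 0.754 and 35.9 ± 0.719 FPKM, and the strand rule of the counting is not known, so reads in the shared stretch cannot be assigned to either gene. Sdc4, a heparan sulfate proteoglycan of focal adhesions, was the most abundant of the group at 104, 97.9 and 99.1 FPKM in the control libraries. Sdc4 was at 134, 138 and 133 FPKM in the NNMT libraries, a 1.35-fold difference without overlap.

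The WFDC and Kunitz cluster around Slpi was silent. Of its 19 members, Slpi alone reached a mean of 1 FPKM, 12 had no read in any library, and the highest value of any other was 0.201 FPKM, for Wfdc3 in the unnumbered NNMT library. Wfdc3 had 3, 2 and 2 reads in the control libraries and 13, 10 and 6 in the NNMT libraries. Of the 6 seminal vesicle genes between Wfdc15b and Slpi, 5 had no read and Svs5 had 1. Before Slpi the nearest member above 1 FPKM was the Hippo pathway kinase gene Stk4, with 11 untested members in between, at 9.48 ± 0.109 and 9.60 ± 0.310 FPKM. On its other side 2 members at or near 0 separated it from Sdc4. These were Matn4, a matrilin of the extracellular matrix with 14 reads in control and 39 in NNMT libraries, and Rbpjl with 6 and 18.

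The nearest tested members beside Ccn5, Mmp9 and Sulf2 differed little. Ada, which deaminates adenosine and lies 70.6 kb before Ccn5, had a log2 fold change of -0.06 (SE 0.065). Ywhab, a 14-3-3 protein gene and the next tested member after Ccn5, had 0.18 (SE 0.049). The zinc finger gene Zfp335, 29.0 kb before Mmp9, had 0.16 (SE 0.060). The nuclear receptor coactivator gene Ncoa5, 44.5 kb after Mmp9, had 0.28 (SE 0.052). Between Mmp9 and Ncoa5 lies Slc12a5, which was under 1 FPKM and not tested. Slc12a5 stood at 0.310 ± 0.0101 and 0.682 ± 0.121 FPKM, a 2.20-fold difference without overlap. Ncoa3, another coactivator gene, overlaps Sulf2 by 154 bases where the 2 genes end, and stood at 5.80, 5.63 and 5.70 FPKM in control and at 5.03, 4.85 and 5.31 FPKM in NNMT libraries. Ncoa3 was thus slightly lower beside the 14.5-fold higher Sulf2. Past Sulf2 the next tested member was Trp53rkb at 0.10 (SE 0.075), 637 kb away.

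Among channel, transporter and membrane genes 7 of 9 tested members were higher and 1 was lower, against 35.0% and 30.6% of all tested genes, with a median log2 fold change of 0.38. Gdap1l1, a relative of the mitochondrial fission gene Gdap1, stood at 2.23, 1.43 and 1.75 FPKM in control and at 4.14, 3.65 and 4.28 FPKM in NNMT libraries. This was a 2.23-fold difference without overlap. Ttpal, a lipid-binding protein gene, was 1.62-fold higher at 17.9 ± 0.396 FPKM. Fitm2, which acts in lipid droplet formation, was 1.47-fold higher and Serinc3, a membrane protein gene, 1.42-fold higher at 49.1 ± 0.643 FPKM. The Golgi nucleotide sugar transporter gene Slc35c2 and the glucose transporter gene Slc2a10 were 1.32-fold and 1.22-fold higher. Pigt, a subunit of the enzyme that attaches GPI anchors, differed least of those called higher (1.10-fold), and its call was lost without control replicate 2 or control replicate 3. The lower one was Tomm34, a co-chaperone of mitochondrial import, from 15.1 ± 0.313 to 12.5 ± 0.521 FPKM. Sys1, a Golgi membrane protein gene, stood at 4.73 ± 0.302 and 4.85 ± 0.504 FPKM.

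Transcription and chromatin genes had a median log2 fold change of 0.16, with 5 of 9 tested members higher and 2 lower, against 35.0% and 30.6% of all tested genes. Zmynd8, a reader of histone acetylation and methylation marks, differed most, at 17.4, 16.8 and 16.4 FPKM in control and 27.3, 25.6 and 26.7 FPKM in NNMT libraries. The means of Zmynd8 differed 1.57-fold. Oser1 was 1.43-fold higher at 15.6 ± 0.0579 FPKM. The single noncoding gene of the interval above 1 FPKM, the antisense RNA 2900093K20Rik, shares 567 bases of span with Oser1 and was lower (1.71 ± 0.367 to 0.987 ± 0.176 FPKM). Besides Ncoa3, the cell cycle factor gene Mybl2 was lower (14.4 ± 0.949 to 12.7 ± 0.907 FPKM). Both calls rest on small differences. Leaving out single libraries, the log2 fold change of Mybl2 ran from -0.21 to -0.12, and its call was lost without control replicate 1, control replicate 2, the unnumbered NNMT library or NNMT replicate 3. For Ncoa3 the log2 fold change ran from -0.18 to -0.12, and the call held only without NNMT replicate 3. Pcif1, a methyltransferase that uses S-adenosylmethionine to modify mRNA caps, stood at 12.5 ± 0.446 and 12.98 ± 0.764 FPKM.

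In the remaining group of signalling, trafficking, RNA and enzyme genes, 7 of 14 tested members were higher, 1 was lower and 6 did not pass the threshold, with a median of 0.16. Of all tested genes, 35.0% were higher and 30.6% lower. The lower gene was Ube2c, the ubiquitin-conjugating enzyme that works with the anaphase-promoting complex in mitosis. Ube2c was at 51.4, 51.6 and 50.7 FPKM in control and at 27.3, 40.7 and 33.7 FPKM in NNMT libraries (log2 fold change -0.60, SE 0.110). The control libraries agreed closely, and the NNMT libraries spread over a coefficient of variation of 19.8%, the widest of the 41 members in that group. Ift52, an intraflagellar transport gene at the lower end of the interval, was 1.55-fold higher at 18.2 ± 1.47 FPKM. Smaller differences were 1.37-fold for Zswim1, 1.34-fold for the peroxisomal thioesterase gene Acot8, 1.28-fold for the protein kinase A inhibitor gene Pkig, and 1.19-fold for Stau1, which binds double-stranded RNA. Cse1l, an export receptor for importin alpha, stood at 43.3 ± 2.47 and 43.8 ± 5.05 FPKM, and Arfgef2 at 9.42 ± 0.228 and 9.82 ± 0.150. Values of Trp53rka and Trp53rkb, close copies of each other, are less certain.

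Of the 50 members under 1 FPKM, 22 had no read in any library and 28 had at least 1. The 4 highest by mean were Neurl2, Jph2, Slc12a5 and Dbndd2. Jph2, which ties the endoplasmic reticulum to the plasma membrane in muscle, had 61, 70 and 45 reads in control and 205, 166 and 146 reads in NNMT libraries (0.397 ± 0.0513 and 1.10 ± 0.132 FPKM, 2.76-fold). Slc12a5, the potassium chloride cotransporter of neurons, lies just after Mmp9 and had 65, 70 and 60 control reads and 190, 117 and 155 NNMT reads (2.20-fold). Neurl2 reads overlapped between the groups by level, at 0.431 to 0.903 FPKM in control and 0.869 to 1.28 in NNMT libraries. Dbndd2 overlapped too, with means of 0.308 and 0.233 FPKM. Cdh22, named after its values were seen, had no read in any control library and 67, 45 and 57 reads in the NNMT libraries. Taking the limit that a count of 0 allows, 3 reads over the control group, as its control level, and scaling the pooled reads of each group to its counted reads, Cdh22 was at least 52.8-fold higher in NNMT cells. Its mean there was 0.407 ± 0.0560 FPKM. Cd40, a receptor of immune cells between Mmp9 and Cdh22, had 4 reads in all.

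Along the interval, the modest differences were not even. Leaving out Ccn5, Slpi, Mmp9 and Sulf2, the 10 tested members of its first Mb had a median log2 fold change of 0.49. The next 3 stretches of 1 Mb, with 15, 8 and 4 such members, had medians of 0.13, 0.22 and 0.08. Ift52, Oser1, Gdap1l1, Fitm2, Ttpal, Serinc3 and Pkig, all higher, lie before Ccn5. Mybl2, which was lower, and Ada, which did not pass the threshold, lie there too. Of the 10 in the first Mb, 8 were higher and 1 lower, against 35.0% and 30.6% of all tested genes. Just outside the lower bound, Srsf6 stood at 78.8 ± 3.34 and 82.4 ± 6.55 FPKM, L3mbtl1 was under 0.05 FPKM in each library and Sgk2 was at 0. Just inside it were Ift52, Mybl2 and Gtsf1l, the last with 1 read. Just inside the upper bound were Arfgef2, Cse1l and Stau1 (30.5 ± 0.763 and 36.3 ± 0.717 FPKM). Outside it, Ddx27 stood at 51.6 ± 1.04 and 65.6 ± 3.76 FPKM and Znfx1 at 6.17 ± 0.374 and 7.62 ± 0.495.

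The modest upward difference also held for the surroundings of the interval. The 6 tested genes in the 4 Mb before it had a median log2 fold change of 0.28 and the 16 in the 4 Mb after it a median of 0.27, close to the 0.24 of the members. For the 783 tested genes of chromosome 2 outside the interval the median was -0.05. In the distal part of the chromosome, 11 windows of 4 Mb had medians from 0.10 to 0.35. None of the other 10 windows held more than 2 genes with a log2 fold change of at least 1, against 5 among the members. Of those 5, 4 are the genes on which the interval was chosen, so most of this count was fixed beforehand. Without them the interval held 1 such gene. The windows also held unlike numbers of tested genes, from 4 to 47, with 41 in the interval.

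**Figure D4:**
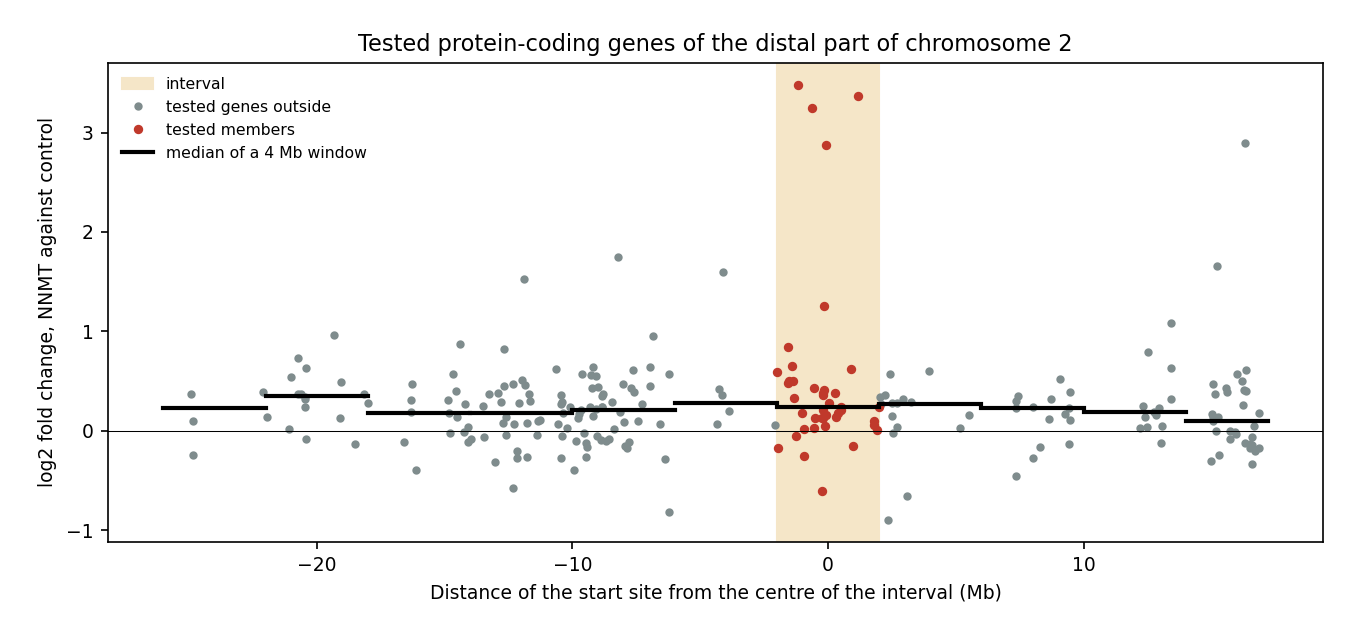
Log2 fold change of tested protein-coding genes (vertical) by distance in Mb from the centre of the interval (horizontal), members in red on the shaded interval and other genes in grey, with black bars for the median of each 4 Mb window. The black bars run from 0.10 to 0.35, and the bar of the interval, at 0.24, does not stand above its neighbours. The 4 red points near 3 are the genes on which the interval was chosen.

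Genes elsewhere in the genome that are related by family or function to genes of the interval, called relatives here, were not used to choose it. Their lists were nevertheless drawn up with earlier results of these data known. Their limma p-values, from the fit over all genes, are therefore given as descriptions and not as independent tests. In the CCN family 2 of 3 tested genes rose and none fell, where 35.0% and 30.6% of all tested genes did. Ccn1 went from 117 ± 12.8 to 242 ± 33.0 FPKM (log2 fold change 1.04, limma adjusted p = 7.53e-06) and Ccn4 from 19.0 ± 0.781 to 28.9 ± 0.681 FPKM (0.58, limma adjusted p = 3.21e-06). Ccn2 stood at 37.7 ± 10.2 and 29.0 ± 11.8 FPKM, a difference within the spread of its libraries (limma adjusted p = 0.278). With the replicate number as a block, over the 4 libraries that share a number, the log2 fold change of Ccn2 was -0.42 and it was called lower. That fit leaves very few degrees of freedom, so its calls rest mostly on the spread of other genes. Nothing is concluded from it for Ccn2.

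Among 7 tested matrix metalloproteinases and TIMP inhibitors, 3 rose and 1 fell, against 35.0% and 30.6% of all tested genes. Their median was 0.08. The abundant collagen-cleaving enzyme genes Mmp2 and Mmp14 stood at 219 ± 8.996 and 224 ± 22.4 FPKM, and at 106 ± 2.79 and 109 ± 10.4 FPKM. Timp2 rose 1.19-fold to 202 ± 5.81 FPKM. Timp1, the X-linked inhibitor that binds MMP9, fell from 181 ± 9.96 to 124 ± 20.7 FPKM (limma adjusted p = 5.72e-04). The largest change of the family, named after its values were seen, was that of Mmp19, which rose 2.59-fold from 7.27 ± 0.958 to 18.9 ± 2.88 FPKM (limma adjusted p = 4.09e-06). Mmp11 rose 1.37-fold to 12.2 ± 1.60 FPKM. Even at 25.5 FPKM, its highest value, Mmp9 remained well under Mmp2 in level per length.

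Of 7 tested sulfatase, syndecan and glypican genes, 4 rose and 1 fell, against 35.0% and 30.6% of all tested genes. Their median was 0.27. Sulf1, the other extracellular heparan sulfate sulfatase gene, stood at 3.11 ± 0.324 and 3.34 ± 0.678 FPKM (log2 fold change 0.07, SE 0.106, limma adjusted p = 0.571). Control cells thus held Sulf1 and Sulf2 at like levels, and NNMT cells held Sulf2 at 32.9 ± 3.75 FPKM beside Sulf1 at 3.34. Sdc2 rose 1.33-fold to 50.7 ± 3.20 FPKM and Gpc1 1.21-fold to 53.9 ± 3.83 FPKM. X-linked Gpc4 fell from 34.2 ± 1.145 to 22.9 ± 1.58 FPKM, and Sdc1 stood at 49.5 ± 2.47 and 50.5 ± 0.839 FPKM. The largest change of this list, named after its values were seen, was that of Gpc6, from 0.754 ± 0.115 to 2.98 ± 0.379 FPKM (3.96-fold, log2 fold change 1.18).

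Of 5 tested serine protease inhibitors and proteases outside the interval 4 rose and 1 fell, against 35.0% and 30.6% of all tested genes. Serpinf1 rose 1.40-fold to 499.8 ± 11.6 FPKM and the plasminogen activator gene Plat 2.94-fold to 44.4 ± 2.78 FPKM. Serpine2, an inhibitor of thrombin and plasminogen activators, rose 60.0-fold from 0.692 ± 0.0252 to 41.5 ± 4.98 FPKM (limma adjusted p = 8.73e-11), a larger ratio than that of any of the 4 chosen genes. The one that fell was the plasminogen activator gene Plau, from 27.1 ± 0.891 to 10.9 ± 0.392 FPKM (limma adjusted p = 2.43e-08). The neutrophil proteases that SLPI blocks were near 0, with Ctsg at 0 and Elane at 0 in control cells and 0.0374 FPKM in NNMT cells. The other WFDC genes of the list, Wfdc1, Wfdc17 and Wfdc18, were under 1 FPKM. Of the matrilins Matn2 was tested and rose 1.55-fold to 55.9 ± 8.998 FPKM, while Matn4 in the interval stayed under 0.2 FPKM.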

How the data were processed

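RNA was sequenced from 3 control and 3 NNMT libraries that the labels number as replicates, without saying that they came from separate cultures. CASAVA, STAR 2.5 and the build mm10 are named, per the submitters' processing notes. Counter, strand rule and annotation: not given in the sources used here. No unit is named in the deposited table, and the FPKM unit is inferred from the values: the authors' numbers, times a length in bases, fall on whole multiples of 1 step per library. That length was the longest transcript of the gene for 14597 of the 20528 rows above 0, and another annotated length served for others (tolerance 0.01 of a read). For 4800 rows, Slc12a5 among them, the smallest length that gave whole reads was taken, so their reads are the fewest possible. Of 35275 rows, 34490 paired with a GENCODE M21 gene on GRCm38, which gave symbols, types and positions.

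The model, fitted to log2(FPKM + 1) for genes whose mean reached 1 FPKM, came from limma 3.58.1 under R 4.3.3 (trend, robust, two-sided, Benjamini-Hochberg adjustment over 10882 genes, threshold 0.05). The p-values measure the spread between these libraries, which may be technical. The fit was tested on simulated data, where 96% of 50 genes changed 1.5-fold among 10882 were recovered, with 18 false calls. Only 50 genes at each of 4 folds were changed there, and all genes shared a single spread set from the control libraries. In the data 65.6% of tested genes were called. Their median coefficient of variation was 4.33% in control and 6.05% in NNMT libraries, so the simulated rates need not hold here. Folds are ratios of mean FPKM (for Cdh22, of pooled reads), given where each group had at least 10 reads. Members and lists were chosen with earlier results of these data known. Each member above 1 FPKM could be named, with the 4 highest below it, 3 genes at each bound and up to 4 genes of each family by level. Cdh22, Cd40, Tox2, Wfdc3, Svs4, Svs5, Matn4, Rbpjl, Plau, Mmp19, Mmp11, Gpc6, Sulf1, Elane, Ctsg and 3 Wfdc genes were named beyond that rule, after their values were seen. Some genes that this rule covers are not reported here.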

Additional observations from a re-analysis of the deposited data

How the results depend on the processing

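The sizes given for Ccn5, Slpi, Mmp9 and Sulf2, on which the interval was chosen, depend on the pseudocount. Between a pseudocount of 10 and 1 of 0.1 their log2 fold changes ran from 1.40 to 4.47 for Ccn5, 2.20 to 3.44 for Slpi, 1.44 to 3.28 for Mmp9 and 1.80 to 3.80 for Sulf2. Of the 41 tested members, 32 kept their call in every alternative that tested them, 6 lost it in at least 1 (Elmo2, Mybl2, Zfp335, Pigt, Ncoa3 and Zfp334) and 3 were called only in an alternative (Zswim3, Dnttip1 and Snx21). Leaving out single libraries gave 24 to 29 members higher, 2 to 3 lower and a median log2 fold change of 0.22 to 0.26. Over all 10860 to 10913 genes of these fits, 3366 to 3828 were higher and 2960 to 3368 lower, with medians of 0.02 to 0.03. Without the unnumbered NNMT library, control replicate 1 or control replicate 2, 2 members were lower. The members' median was 0.28 with a pseudocount of 0.1, 0.15 with 10 and 0.125 with no filter (69 members). It was 0.26 with a minimum of 5 FPKM (34 members) and 0.21 under quantile normalization. The median of all genes in these fits ran from 0.005 (no filter) to 0.031 (pseudocount 0.1). With the interval narrowed by 1 Mb on each side the members' median was 0.21 over 24 members, with 16 higher, 2 lower and 3 at least 1 log2 unit apart. This setting and the next reuse the main fit, where 35.0% of all tested genes were higher and 30.6% lower. In that fit 2.36% were at least 1 log2 unit higher and 1.76% at least 1 log2 unit lower. Without members that overlap another expressed gene, 2 members were lower and 3 were at least 1 log2 unit apart, since Sulf2 and Pltp drop out. With the replicate number as a block, over the 4 libraries that carry a shared number, the members' median was 0.21, with 24 higher and 3 lower. Over all 10877 genes of that fit 3903 were higher and 3207 lower, with a median of 0.035. Under the block Zfp334, Pigt, Ncoa3 and Zfp335 lost their call. Deviations of same-numbered libraries correlated at 0.212 and 0.11 across genes, and those of control replicate 1 and the unnumbered NNMT library at 0.314. Unlike numbers gave similar values for control replicate 3 with NNMT replicate 2 (0.212) and control replicate 1 with NNMT replicate 3 (0.111). The remaining pairs ran from -0.381 to -0.0417. Deviations within a group cancel out, so these values are not independent and do not show a shared batch. The labels do not say that a number marks a shared batch. The block made Ccn2 a called fall (log2 fold change -0.42) and otherwise changed no call among the tested relatives. With 4 libraries and a block, very few degrees of freedom remain, so the calls of that fit rest mostly on the spread of other genes. Timp3 was called higher without NNMT replicate 2 (0.18). Members under about 10 reads per group allow no fold at this depth.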
